A study of Mus musculus with 6 samples.

Results

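The calcium handling genes of arterial smooth muscle were examined in the aorta of miRNA-26b-/- and miRNA-26b+/+ mice. The set was fixed by gene name and holds 10 of the 55341 genes in the count table, namely the voltage-gated calcium channel genes Cacna1c, Cacna1d, Cacna1h and Cacnb2, the calcium release channel genes Itpr1, Ryr2 and Ryr3, the calcium pump gene Atp2a2 with its inhibitor Pln, and the calcium sensor gene Stim1. The libraries M2626, M2627 and M2628 came from 3 miRNA-26b-/- mice and the libraries M2629, M2630 and M2631 from 3 miRNA-26b+/+ mice, with 1 mouse per library. All mice were 8 weeks old and were fed a chow diet. Per the methods, they were killed under deep anaesthesia with xylazine and ketamine, and blood was collected. The aortic arch and thoracic aorta were taken after perfusion with buffer. The labels give C57BL/6NCrl as the strain of both groups. The methods describe an allele made in R1/E embryonic stem cells, which are not of C57BL/6 origin, and bred to C57BL/6 females, which gives a mixed background. The Neo cassette of the targeted allele was removed by a cross to Flp mice, the floxed miRNA-26b sequence was then deleted with tamoxifen and CreERT2, and the CreERT2 transgene was bred out afterwards. The methods do not say whether the sequenced mice themselves received tamoxifen. The labels do not say whether the miRNA-26b+/+ mice were littermates.

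Arterial smooth muscle contracts when calcium in its cytosol rises and binds calmodulin, which activates myosin light chain kinase. Calcium enters from outside through voltage-gated channels, of which the L-type channel is the main route, and is released from the sarcoplasmic reticulum through inositol trisphosphate (IP3) receptors and ryanodine receptors. The SERCA pump returns calcium to the reticulum under the restraint of phospholamban, and STIM1 senses an emptied store and opens ORAI channels in the plasma membrane.

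The 6 libraries held 25706728 to 33345037 counts, and 17744 to 19287 genes had at least 1 count. The labels call the material endothelial cells, but the smooth muscle markers Acta2 and Myh11 stood at 14360 to 17960 and at 7821 to 11890 CPM (counts scaled to a common library total), against 176 to 724 CPM for Pecam1, an endothelial adhesion molecule. The sum of 8 smooth muscle markers was 33050 to 42960 CPM, none of them was at 0 in any library, and the groups overlapped. Mir26b itself had 0 counts in 5 libraries and 20 counts in M2630, so that these libraries of long RNA do not check the deletion. Its host gene Ctdsp1 was counted in every library, at 184 to 200.5 CPM in miRNA-26b-/- and 151 to 176 CPM in miRNA-26b+/+. Other cell types varied between libraries. The sum of 11 cardiac markers was 388 CPM in M2627 and 333 CPM in M2630 against 20.8 to 79.5 CPM in the other 4 libraries, with Myl2 at 0 throughout, and the sum of 10 sympathetic neuron markers was 318 CPM in M2627, 62.7 CPM in M2630 and 15.1 to 24.3 CPM elsewhere. Brown adipocyte, fibroblast and macrophage markers summed to 147 to 450.4, 4387 to 8131 and 281 to 743 CPM, with overlapping groups. In whole tissue, fewer cells of a type and less RNA per cell cannot be told apart.

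The sequence of the deleted miRNA and its matches in the set are shown first, since a match to the seed (bases 2 to 8, in capitals) in a 3′ UTR is the feature by which a miRNA recognizes a transcript. The mature sequences are those of RefSeq, on GRCm38.p6. The deletion removes both arms of the hairpin, and only the seed of the 5p arm was searched here. That arm, miR-26b-5p, is encoded at chr1:74394324-74394344 on the forward strand, within Ctdsp1. The related form miR-26a-5p is encoded on chromosomes 9 and 10, was not deleted, and carries the same seed.
miR-26b-5p: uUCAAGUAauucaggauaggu
miR-26a-5p: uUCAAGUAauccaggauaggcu

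Matches of 3 kinds were searched on the sense strand of the longest annotated 3′ UTR: TACTTGAA (the 8mer), TACTTGA without the last A (7mer-m8) and ACTTGAA without the first T (7mer-A1), with a match inside an 8mer counted as the 8mer only. Of the 10 genes, 3 held a match, and they are printed with their flanks and with the match in capitals. Cacna1c held an 8mer at chr6:118592461-118592468, the strongest kind of match, and a 7mer-A1 at chr6:118587958-118587964, both on the reverse strand. Cacnb2 held a 7mer-A1 at chr2:14987598-14987604 and Itpr1 held one at chr6:108550109-108550115, both on the forward strand. All positions are on GRCm38.
Cacna1c 8mer: agaaactgttaTACTTGAAttcaggtcagt
Cacna1c 7mer-A1: cagcccctcagACTTGAAatccacctacc
Cacnb2 7mer-A1: aaaatggaatgACTTGAAgcaaaaaagtt
Itpr1 7mer-A1: acctgatttgcACTTGAAccagattatag

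Such matches are common in long UTRs. The 3′ UTR of Cacna1c is 6652 bases long, and of the 710 UTRs of like length 62.5% held a match of some kind and 15.2% an 8mer. For Cacnb2, with a UTR of 1832 bases, the share of like UTRs with a match was 23.0%, and for Itpr1, with 1270 bases, it was 17.2%. No match was found in Cacna1d, although its UTR of 7621 bases was the longest of the set and 65.7% of like UTRs held one, nor in Cacna1h, Ryr2, Ryr3, Atp2a2, Pln or Stim1. Over all tested genes with a 3′ UTR, 22.1% held a match and 5.09% an 8mer, and the median log2 fold change was 0.0012 for those with a match against 0.02 for those with none. A match of letters is a description and not a site of binding.

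Whether the loss of miRNA-26b went with a change of the calcium handling genes was tested in a fit over all genes, with edgeR's quasi-likelihood test and Benjamini-Hochberg adjustment over 16017 genes. Of the 10 genes, 9 passed the filter on low counts, and Ryr3 did not. None of the 9 passed an unadjusted or an adjusted p of 0.05, where 6.46% and 0.00624% of all tested genes did, and DESeq2 and limma voom gave the same counts of 0. In each of the 9 genes the CPM values of the groups overlapped, as they did in all but 11.7% of tested genes. The log2 fold change of miRNA-26b-/- over miRNA-26b+/+ was negative in 7 and positive in 2, with a median of -0.15 beside 0.01 over all genes. The median size of the change, without its sign, was 0.15 on the log2 scale against 0.25 over all genes. The 95% interval of the fold, which limits the size of a difference, is given with each of the 9 genes.

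**Figure D1:**
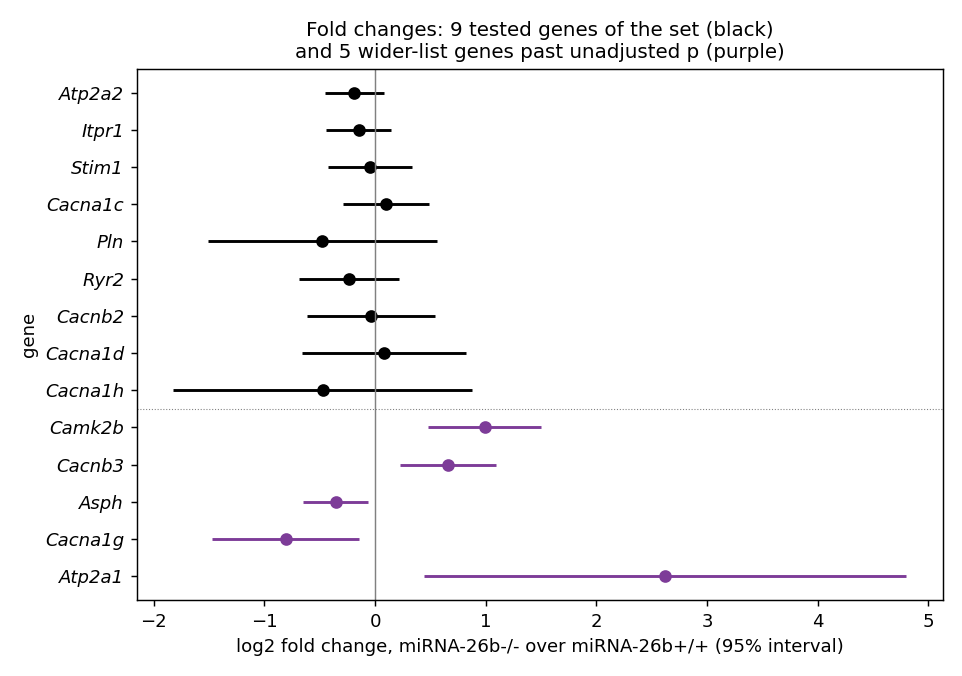
Log2 fold change of miRNA-26b-/- over miRNA-26b+/+ (horizontal axis, points) with its 95% interval (lines) for the 9 tested genes of the set in black and 5 genes of a wider calcium list in purple. Every black interval includes 0, and those of Pln and Cacna1h are the widest.

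The 10 genes differed far more from each other than between genotypes. Levels between genes were compared as CPM per kilobase of exon. Atp2a2 was highest with a mean of 194 over the 6 libraries, above 98.9% of tested genes, followed by Itpr1 at 25.2 and Stim1 at 9.53. Cacna1c at 3.82, Pln at 3.74 and Ryr2 at 3.71 came next and could not be ordered, since the ranges of neighbors overlapped. Cacnb2 at 2.16 overlapped with Ryr2 above it and with Cacna1d at 1.21 below it. Cacna1h at 0.351 and Ryr3 at 0.0148 stood apart at the end. Ranges of neighbors did not overlap between Atp2a2 and Itpr1, a difference of 7.7-fold, between Itpr1 and Stim1 (2.65-fold), between Stim1 and Cacna1c (2.49-fold) and between Cacna1d and Cacna1h (3.46-fold).

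**Figure D2:**
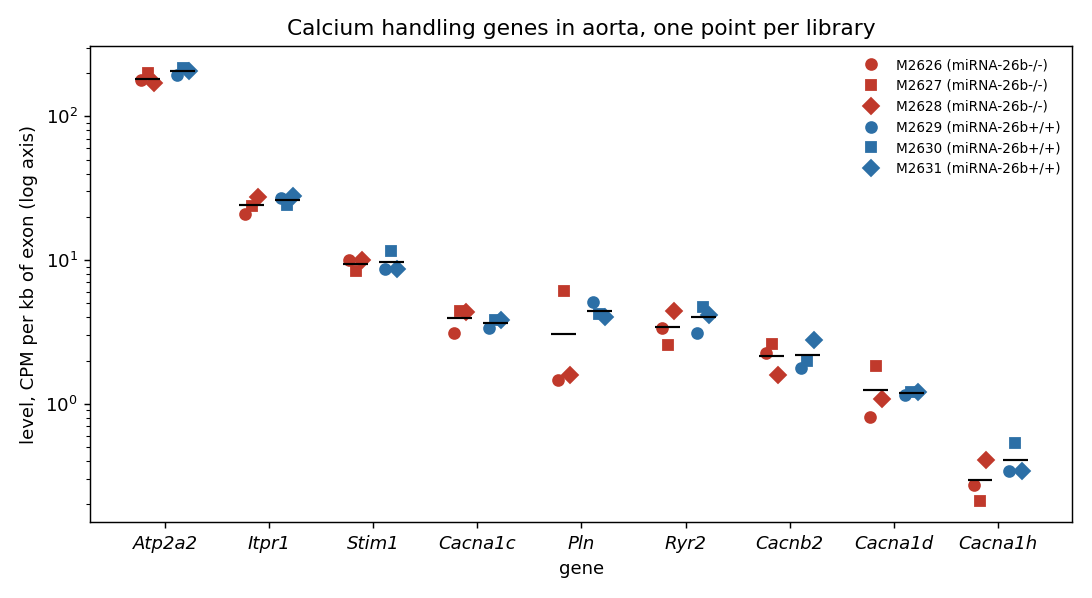
Level per length of 9 genes in each library (vertical axis, CPM per kilobase of exon, log axis), with red points for the 3 miRNA-26b-/- and blue points for the 3 miRNA-26b+/+ libraries and a black line at each group mean. Red and blue points overlap in every gene while the genes span from 0.212 (Cacna1h in M2627) to 218 (Atp2a2 in M2630). Ryr3 is left out because it was at 0 in 3 libraries.

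Among the channels of the plasma membrane, Cacna1c encodes the pore of CaV1.2, the L-type channel that carries most of the voltage-gated calcium current of arterial muscle. It lies on chromosome 6 from 118587240 to 119196418 on the reverse strand, with 49 exons in its transcript with the most exons. Cacna1c stood at 66.3, 93.5 and 92.5 CPM in M2626, M2627 and M2628 and at 71.4, 81.2 and 80.8 CPM in M2629, M2630 and M2631. The miRNA-26b-/- libraries thus held both the lowest and the highest value. The means were 84.1 ± 15.4 and 77.8 ± 5.58 CPM (SD, n = 3 each), and the log2 fold change was 0.10 (SE 0.18, edgeR quasi-likelihood adjusted p = 0.965). The 95% interval of the fold ran from 0.819 to 1.41. Cacna1c is the one gene of the set with an 8mer match to the seed of miR-26b.

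Cacna1d encodes the pore of CaV1.3, an L-type channel that opens at more negative voltages, and lies on chromosome 14 from 30039939 to 30491455. Its values were 10.2, 23.2 and 13.6 CPM in miRNA-26b-/- and 14.5, 15.2 and 15.3 CPM in miRNA-26b+/+. The coefficient of variation was 2.94% in miRNA-26b+/+, less than the 4.74% that counting alone gives. In miRNA-26b-/- it was 43.1%, with M2627 well above the others. The log2 fold change was 0.08 (SE 0.35, edgeR quasi-likelihood adjusted p = 0.991), with 0.634 to 1.76 as the 95% interval of the fold, and without M2627 it was -0.35. M2627 also had the highest sums of cardiac and sympathetic neuron markers, and their part in the Cacna1d values was not tested. Per length, Cacna1c made up 70.6 to 80.2% of the L-type pore subunits and Cacna1d 19.7 to 29.4%, with Cacna1s at 3.78% in M2626 and at 0 elsewhere and Cacna1f at 0 throughout.

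Cacna1h encodes CaV3.2, a T-type channel, which opens at low voltage and closes fast. It lies on chromosome 17 from 25374285 to 25433783 and had between 68 and 146 counts per library. Its values were 2.65, 2.07 and 3.98 CPM in miRNA-26b-/- and 3.31, 5.24 and 3.31 CPM in miRNA-26b+/+, a log2 fold change of -0.47 (SE 0.63, edgeR quasi-likelihood adjusted p = 0.942). The groups overlapped, and the interval of the fold ran from 0.283 to 1.84. The coefficients of variation were 33.8% in miRNA-26b-/- and 28.2% in miRNA-26b+/+, where counting alone gives 11% and 9.28%. Cacna1h was the minor T-type gene, with 11.9 to 21.9% of the T-type level per length against 78.1 to 88.1% for Cacna1g, which encodes CaV3.1.

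Cacnb2 encodes a beta subunit, which brings the pore of an L-type channel to the membrane and sets its gating. It lies on chromosome 2 from 14603088 to 14987908. Its values were 29.9, 34.5 and 20.9 CPM in miRNA-26b-/- and 23.5, 26.4 and 36.6 CPM in miRNA-26b+/+. The values of the groups were interleaved, with means of 28.4 ± 6.92 and 28.9 ± 6.86 CPM (SD, n = 3 each). On the log2 scale the fold change was -0.03 (SE 0.27, edgeR quasi-likelihood adjusted p = 0.994), with 0.653 to 1.46 as the interval of the fold. The ratio of Cacnb2 to Cacna1c per length was 0.722, 0.59 and 0.361 in miRNA-26b-/- and 0.528, 0.521 and 0.725 in miRNA-26b+/+, and the groups overlapped in this ratio as well.

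Itpr1 encodes the type 1 IP3 receptor, which releases calcium from the reticulum when vasoconstrictors act on their receptors. It lies on chromosome 6 from 108213096 to 108551109 and was the most abundant release channel. Its values were 385, 435 and 503 CPM in miRNA-26b-/- and 492, 443 and 513 CPM in miRNA-26b+/+. M2626 was the lowest and M2631 the highest, and the groups overlapped. Its log2 fold change was -0.15 (SE 0.14, edgeR quasi-likelihood adjusted p = 0.914), and the interval of the fold, 0.737 to 1.11, was the narrowest of the set after that of Atp2a2. Itpr1 made up 80.2 to 88.2% of the IP3 receptor level per length, with Itpr2 at 5.84 to 10.2% and Itpr3 at 5.95 to 9.68%.

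Ryr2 encodes the ryanodine receptor of heart, which in arterial muscle also gives rise to calcium sparks. It lies on chromosome 13 from 11553102 to 12106945, with 105 exons in its transcript with the most exons. Its values were 96.2, 74.4 and 126 CPM in miRNA-26b-/- and 89.9, 135 and 120 CPM in miRNA-26b+/+, and the groups overlapped. The gene is abundant in heart. M2627, the library with the highest cardiac sum, had the lowest Ryr2, while M2630, also high in the cardiac sum, had the highest, and the part of cardiac RNA in the Ryr2 values was not tested. The log2 fold change was -0.24 (SE 0.21, edgeR quasi-likelihood adjusted p = 0.905), with 0.621 to 1.16 as the interval of the fold. It depended on the libraries included, as it was -0.45 without M2628 (unadjusted p = 0.0426, adjusted p = 0.438 in edgeR) and 0.08 without M2627 and M2630, an alternative chosen after seeing the data.

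Ryr3, the third ryanodine receptor gene, lies on chromosome 2 from 112631355 to 113217096 and was close to undetected. It had 0, 24 and 1 counts in M2626, M2627 and M2628 and 28, 0 and 0 counts in M2629, M2630 and M2631. Almost all its reads therefore came from 1 library of each group, and it was not tested. Of its exonic bases, 4.83% overlap Aven on the opposite strand, which had 178 to 509 counts per library. The kit and the counting kept no strand, so reads in that overlap cannot be assigned to either gene. Ryr2 made up at least 98.4% of the ryanodine receptor level per length, and Ryr1 at most 0.157%. Itpr1 exceeded the sum of Ryr2 and Ryr3 per length by 6.3, 9.06 and 6.24 times in miRNA-26b-/- and by 8.48, 5.16 and 6.73 times in miRNA-26b+/+, with overlapping groups.

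Atp2a2 encodes SERCA2, the pump that refills the reticulum of cardiac and smooth muscle, and lies on chromosome 5 from 122453513 to 122502225. Its values were 1085, 1209 and 1038 CPM in miRNA-26b-/- and 1174, 1327 and 1248 CPM in miRNA-26b+/+. M2627 was above M2629, and all other miRNA-26b-/- values were below all wild type values. The means were 1111 ± 88.3 and 1250 ± 76.6 CPM (SD, n = 3 each), and the log2 fold change was -0.19 (SE 0.12, edgeR quasi-likelihood adjusted p = 0.853). An exact permutation test of the CPM gave p = 0.2, two-sided, where 3 against 3 libraries cannot give less than 0.1. Atp2a2 was the most precisely measured gene of the set, with 0.732 to 1.06 as the interval of the fold. It made up 84.2 to 91.3% of the SERCA level per length, with Atp2a3 at 6.57 to 15.8% and Atp2a1 at 0.0102 to 2.15%. The sum of the SERCA genes per length, computed after the values were seen, was 202, 218 and 203 in miRNA-26b-/- and 222, 254 and 234 in miRNA-26b+/+, with no overlap, as in 11.7% of single genes.

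Pln encodes phospholamban, which slows SERCA2 until it is phosphorylated, and lies on chromosome 10 from 53337667 to 53345987. Its values were 4.01, 16.8 and 4.37 CPM in miRNA-26b-/- and 14.0, 11.6 and 11.1 CPM in miRNA-26b+/+. Pln in M2626 and M2628 was below every wild type library, while M2627 was above all of them, and it varied more than any other tested gene of the set. The coefficient of variation was 86.8% in miRNA-26b-/- and 12.7% in miRNA-26b+/+, where counting alone gives 6.18% and 5.25%. The log2 fold change was -0.48 (SE 0.48, edgeR quasi-likelihood unadjusted p = 0.342, adjusted p = 0.929), with 0.351 to 1.47 as the interval of the fold.

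The result for Pln rested on 1 library. Without M2627 the log2 fold change of Pln was -1.56 (SE 0.52, edgeR quasi-likelihood unadjusted p = 0.00893, adjusted p = 0.858), and without M2627 and M2630 it was -1.58 (unadjusted p = 0.0203, adjusted p = 1.0). Over the other left-out libraries it lay between -0.55 and -0.16. M2627 had the highest sum of the 11 cardiac markers, 388 CPM, and phospholamban is abundant in heart. M2630 had a cardiac sum of 333 CPM and Pln at 11.6 CPM, and M2629 had 79.5 CPM and 14.0 CPM. The part of cardiac RNA in the Pln values was not tested.

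The count of Pln is also uncertain for another reason. Of its 2759 exonic bases, 59.6% overlap the gene model Gm47644 on the opposite strand and 5.11% overlap Cep85l. Gm47644 had 103, 434 and 74 counts in miRNA-26b-/- and 233, 254 and 227 counts in miRNA-26b+/+, against 103, 560 and 122 and 423, 324 and 341 counts for Pln. M2626 and M2628 were low and M2627 was highest in both genes. Among the miRNA-26b+/+ libraries, Pln was highest in M2629 and Gm47644 in M2630. Reads in the overlap were counted for both genes, so that a likeness of their counts is partly built in. Which gene these reads came from cannot be told.

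**Figure D3:**
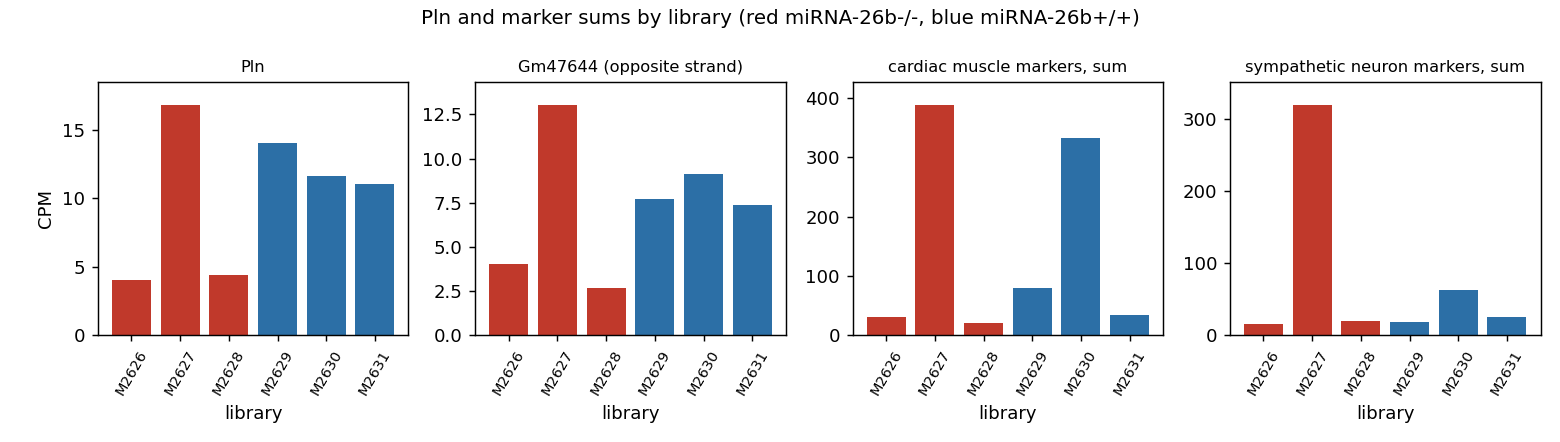
Bars give CPM in each library for Pln, for the overlapping gene Gm47644, and for the sums of 11 cardiac and 10 sympathetic neuron markers, with miRNA-26b-/- in red and miRNA-26b+/+ in blue. M2627 is the highest in all panels. M2630 is high in the cardiac panel and lies between M2629 and M2631 in the Pln panel, where M2626 and M2628 are below all wild type libraries.

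The ratio of Pln to Atp2a2, taken between transcripts, was 0.00814, 0.0306 and 0.00928 per length in miRNA-26b-/- and 0.0263, 0.0193 and 0.0195 in miRNA-26b+/+. Protein was not measured, and the uncertain count of Pln limits this ratio too. M2626 and M2628 again lay below the wild type range and M2627 above it. With means of 0.016 ± 0.0127 and 0.0217 ± 0.00395 (SD, n = 3 each), the groups overlapped. In every library the transcript of the pump exceeded that of its inhibitor by far.

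Stim1 encodes the calcium sensor of the reticulum and lies on chromosome 7 from 102267806 to 102437319. Its values were 103, 86.5 and 104 CPM in miRNA-26b-/- and 89.6, 120 and 89.3 CPM in miRNA-26b+/+. M2627 was the lowest and M2630 the highest, and the other 4 libraries lay between them. Its log2 fold change was -0.04 (SE 0.18, edgeR quasi-likelihood adjusted p = 0.991), with 0.746 to 1.26 as the interval of the fold. Stim1 made up 59.8 to 68.0% of the STIM level per length and Stim2 the remainder.

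**Figure D4:**
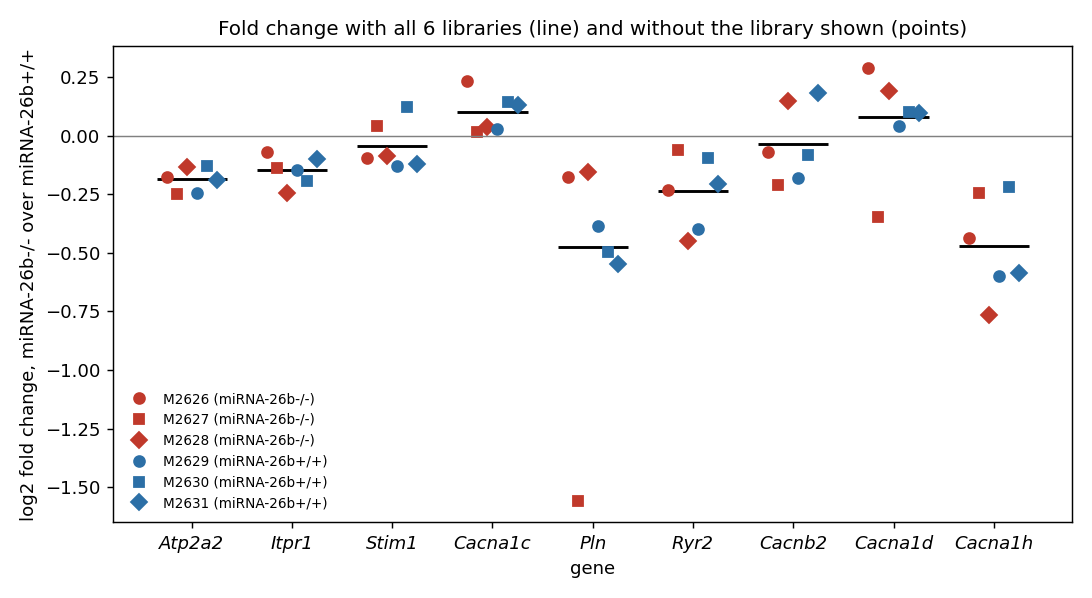
Log2 fold change of each of the 9 tested genes (vertical axis) with all 6 libraries (black line) and after leaving out the library given by the color and shape of the point. Points lie on both sides of 0 for Cacna1d, Cacnb2 and Stim1, and the point of Pln without M2627 lies at -1.56.

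A wider list of 61 genes of calcium handling was read from the same fit, and 51 of them were tested. An unadjusted p under 0.05 was found for 5 of the 51, 3 higher and 2 lower in miRNA-26b-/-, where 3.4% of all tested genes were higher and 3.07% lower. None passed the adjusted p of edgeR, and the 5 are therefore given as values and not as changes. The log2 fold change was negative in 32 and positive in 19, with a median of -0.06 beside 0.01 over all genes. The groups did not overlap in 6 of the 51, near the 11.7% found over all genes. A match to the miR-26 seed was held by 12 of the 61, of which 3 held an 8mer. Over all tested genes with a 3′ UTR, 22.1% held a match and 5.09% an 8mer.

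The smallest p of the wider list belonged to Camk2b, the beta chain of calcium- and calmodulin-dependent kinase II, a kinase that phosphorylates channels and phospholamban. Camk2b stood at 46.2, 45.2 and 47.7 CPM in miRNA-26b-/- and at 17.1, 23.4 and 28.6 CPM in miRNA-26b+/+. The miRNA-26b-/- libraries were all above the wild type libraries and close to each other, with a coefficient of variation of 2.74%, about that of counting alone (2.73%). Camk2b had a log2 fold change of 0.99 (SE 0.24, edgeR quasi-likelihood unadjusted p = 0.000909, adjusted p = 0.640), and it lay between 0.80 and 1.18 over the left-out libraries. Per length, Camk2b averaged 3.80 over all libraries, below Camk2g at 24.6 and Camk2d at 6.10, which encode other chains of this kinase. Their log2 fold changes were 0.13 (SE 0.18) and 0.0086 (SE 0.16), with overlapping groups. Camk2g and Camk2d were named after their values were seen.

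Cacnb3, a beta subunit gene like Cacnb2, stood at 57.5, 66.6 and 64.0 CPM in miRNA-26b-/- and at 35.6, 34.6 and 47.5 CPM in miRNA-26b+/+, with no overlap. Its log2 fold change was 0.66 (SE 0.20, edgeR quasi-likelihood unadjusted p = 0.00546, adjusted p = 0.734). The unadjusted p was 0.0763 without M2627 and M2630. The ratio of Cacnb3 to Cacnb2 per length, which was computed after these values were seen, was 6.34, 6.38 and 10.1 in miRNA-26b-/- and 5.0, 4.32 and 4.28 in miRNA-26b+/+. Cacnb2 accordingly made up 8.06 to 12.1% of the beta subunit level per length in miRNA-26b-/- and 13.6 to 15.6% in miRNA-26b+/+, although its own level was about the same in both groups.

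Cacna1g, the major T-type gene, stood at 12.4, 12.4 and 14.7 CPM in miRNA-26b-/- and at 16.3, 26.6 and 25.4 CPM in miRNA-26b+/+. The groups did not overlap, with M2629 close to the miRNA-26b-/- libraries. Cacna1g had a log2 fold change of -0.81 (SE 0.31, edgeR quasi-likelihood unadjusted p = 0.0204, adjusted p = 0.736), and the unadjusted p exceeded 0.05 without M2627, M2630 or M2631. Cacna1h, its partner in the set, had a negative fold change too, but with overlapping groups.

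Asph, whose products include junctin, a partner of the ryanodine receptor, stood at 339, 328 and 279 CPM in miRNA-26b-/- and at 426, 362 and 408 CPM in miRNA-26b+/+. The groups did not overlap, and the log2 fold change was -0.35 (SE 0.14, edgeR quasi-likelihood unadjusted p = 0.0217, adjusted p = 0.736). Of its exonic bases, 14.3% overlap Clvs1 on the opposite strand. The unadjusted p exceeded 0.05 without M2628, M2629 or M2631.

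Atp2a1, the SERCA gene of fast skeletal muscle, stood at 4.55, 16.3 and 0.0717 CPM in miRNA-26b-/- and at 0.265, 2.23 and 1.2 CPM in miRNA-26b+/+. The high values were those of M2626 and M2627, and M2628 was the lowest of all, so that the groups overlapped. Atp2a1 had a log2 fold change of 2.62 (SE 1.03, edgeR quasi-likelihood unadjusted p = 0.0214, adjusted p = 0.736), and it was 0.87 without M2627. The unadjusted p was 0.523 with limma voom and 0.0954 with the earlier method of edgeR. The sum of 10 skeletal muscle markers was 37.3, 104 and 8.6 CPM in miRNA-26b-/- and 6.65, 13.0 and 3.67 CPM in miRNA-26b+/+, with overlapping groups. Of the 10 markers, 0 to 7 were at 0 in a library. Past the unadjusted p in the same direction were 7 of the 9 tested markers, against 3.4% of all tested genes. These shares are not alike. With 7 of the 10 markers at 0 in M2629 and M2630, a marker could pass the filter on low counts through miRNA-26b-/- libraries alone. The count of 7 is therefore no support for a difference. The part of skeletal muscle RNA in the Atp2a1 values was not tested. Another 21.9% of the exonic bases of Atp2a1 overlap Rabep2 on the opposite strand.

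**Figure D5:**
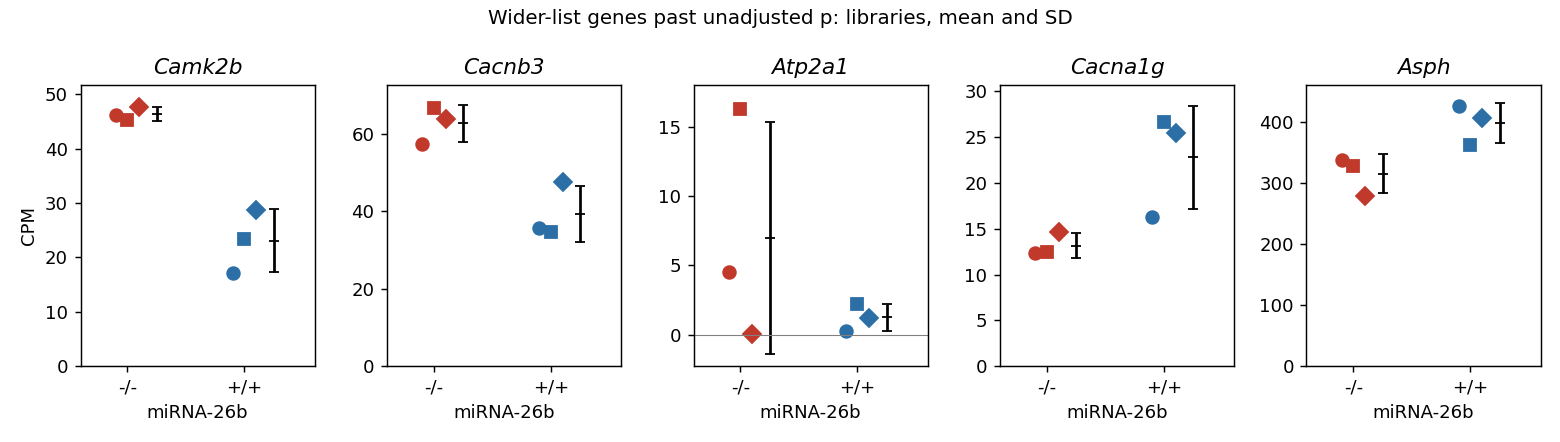
CPM of the 5 wider-list genes past an unadjusted p of 0.05 (vertical axes start at or below 0), with 3 miRNA-26b-/- libraries in red, 3 miRNA-26b+/+ libraries in blue, and the mean and SD of each group in black. The groups are apart for Camk2b, Cacnb3, Cacna1g and Asph and overlap for Atp2a1.

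The Schwann cell markers were also apart between the groups. Their sum was 555, 532 and 361 CPM in miRNA-26b-/- and 225, 247 and 302 CPM in miRNA-26b+/+, with 0 to 2 of the 8 markers at 0 in a library, and all 7 tested markers passed the unadjusted p as higher in miRNA-26b-/-. Of the 10 sympathetic neuron markers, 4 of 9 tested did so, but the groups overlapped in their sum. That sum was 15.1, 318 and 19.8 CPM in miRNA-26b-/- and 18.1, 62.7 and 24.3 CPM in miRNA-26b+/+. Over all tested genes, 3.4% passed the unadjusted p as higher and 3.07% as lower. The markers were chosen with earlier results of these data known. The Schwann cell list holds Mbp, which the paper had picked from these libraries as a top changed gene. These counts of markers are therefore not independent support. The part of nerve tissue in the values of Camk2b, Cacnb3 and Cacna1d was not tested. The sum of 7 endothelial markers was 410 and 449 CPM in M2626 and M2627 against 1170 to 1681 CPM in the other 4 libraries, and 1 of the 7 passed the unadjusted p as lower.

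Apart from Cacnb3 and Cacna1g, the most abundant genes in each class of the wider list did not pass the unadjusted p of edgeR. A failed test does not show that a difference is small. Among the release channels and their anchors, Jph2 (junctophilin 2, which ties the reticulum to the plasma membrane) stood at 606, 580 and 627 CPM in miRNA-26b-/- and at 699, 653 and 743 CPM in miRNA-26b+/+, without overlap, with a log2 fold change of -0.23 (SE 0.12, edgeR quasi-likelihood unadjusted p = 0.0885, 0.0381 with DESeq2). Calr, a calcium-binding protein of the reticulum, had a log2 fold change of -0.16 (SE 0.14) and Mrvi1, an IP3 receptor partner, one of -0.02 (SE 0.14). Both had overlapping groups. Casq1, the calsequestrin of skeletal muscle and the last of the 6 genes without overlap, stood at 73.9, 66.8 and 81.1 CPM in miRNA-26b-/- and at 66.0, 46.5 and 62.3 CPM in miRNA-26b+/+, and was named after its values were seen. Its log2 fold change was 0.32 (SE 0.19, edgeR quasi-likelihood unadjusted p = 0.11).

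Of the pumps and exchangers, Atp2a3 (SERCA3, known from endothelium and blood cells) stood at 119, 75.5 and 170 CPM in miRNA-26b-/- and at 155, 184 and 151 CPM in miRNA-26b+/+. Its log2 fold change was -0.45 (SE 0.23, edgeR quasi-likelihood unadjusted p = 0.0663, 0.0304 with limma voom). It was -0.77 without M2628 (edgeR unadjusted p = 0.0012, adjusted p = 0.123), -0.19 without M2627 and -0.089 without M2627 and M2630. Its lowest values were those of M2627 and M2626, the libraries with the lowest endothelial sums. The part of endothelium in these values was not tested. Atp2b4, a plasma membrane pump, and Slc8a1, the sodium-calcium exchanger, had log2 fold changes of -0.10 (SE 0.13) and 0.09 (SE 0.15), with overlapping groups.

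Partners of Stim1 gave no difference past the test. Orai1, the pore of store-operated entry, stood at 7.66, 14.1 and 19.6 CPM in miRNA-26b-/- and at 14.5, 19.2 and 17.2 CPM in miRNA-26b+/+ (log2 fold change -0.30, SE 0.35). Orai3 was more abundant, at 41.5 to 55.9 CPM over all libraries (log2 fold change -0.12, SE 0.20), and Saraf, which limits store-operated entry, had a log2 fold change of -0.21 (SE 0.14). None of the 6 tested genes of this class passed the unadjusted p.

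Downstream of calcium, Mylk, the kinase that starts contraction, stood at 1625 to 1767 CPM in miRNA-26b-/- and at 1647 to 2026 CPM in miRNA-26b+/+ (log2 fold change -0.13, SE 0.13). The calmodulin genes Calm2 and Calm3 had log2 fold changes of 0.04 (SE 0.14) and -0.02 (SE 0.15). Cacna2d1, the accessory subunit that accompanies CaV1.2, had one of -0.06 (SE 0.17). For mitochondrial uptake, Mcub, Micu2 and Smdt1, which adjust or complete the uniporter, had log2 fold changes of 0.22 (SE 0.55), -0.0016 (SE 0.22) and 0.07 (SE 0.23). The groups overlapped in each of these genes.

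Some calcium genes were high in single libraries, and were chosen for mention after their values were seen. Cacna1b, the N-type channel of nerve endings, had 275 counts in M2627 and 0 in the other 5 libraries, and M2627 was the library with the highest sympathetic neuron sum. Casq2, the calsequestrin of heart, stood at 6.72 CPM in M2627 and 10.2 CPM in M2630 against 0 to 1.01 CPM elsewhere, and Sln, a SERCA inhibitor of atrium, at 9.99 CPM in M2627 and 5.93 CPM in M2630 against 0 to 0.0993 CPM elsewhere. Both were high in the libraries with the high cardiac sums. The part of nerve and heart tissue in the values of these genes was not tested.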

How the data were processed

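Aortic RNA of 3 miRNA-26b-/- and 3 miRNA-26b+/+ mice was sequenced after preparation with the TruSeq RNA v2 kit, which keeps no strand. The authors aligned the reads to mm10 with STAR and deposited raw counts per gene name, made per the file headers with featureCounts 1.6.4 over GENCODE release 21 exons, without strand and with a read over several genes counted for each. The methods name a later release. A deposited table with the authors' log2 CPM, fold changes and p-values was not used.

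Genes with at least 2 counts in sum and more than 1 CPM in 2 or more libraries were kept. Counts were normalized by TMM (factors 0.982 to 1.015) and tested with edgeR 4.0.16 (glmQLFit, glmQLFTest, R 4.3.3). The prior count was 0.125, and Benjamini-Hochberg adjustment ran over all 16017 genes tested. CPM values were divided by library totals and, for levels between genes, by the exonic length of the count table. Exact permutation tests used all assignments of 3 against 3 libraries. The group of each library came from its genotype label, and replicate numbers name libraries only. Alternatives were library size and upper-quartile normalization, DESeq2 1.42.0, limma voom (limma 3.58.1), the earlier method and robust shrinkage of edgeR, filterByExpr, no filter, and leaving out each library. Leaving out M2627 and M2630 together was added after seeing the data. The scripts were tested on simulated counts.

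The 10 genes, the wider list, the markers and the tests were chosen with earlier results of these data known. Named genes are the 10, the wider-list genes with an unadjusted p under 0.05, the 3 tested genes with the highest level per length in each class of that list, and the top 2 markers of a list. Shares within gene families were added after seeing the data.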

Additional observations from a re-analysis of the deposited data

How the results depend on the processing

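Genes past an adjusted p of 0.05 numbered 1 of 16017 with edgeR's quasi-likelihood test, 53 with DESeq2, 3 with limma voom, 3 with robust shrinkage, 0 with the earlier method, 0 without M2627 and M2630, and 0 to 82 when single libraries were left out. Genes past an unadjusted p numbered 1035, 686 to 1692 when single libraries were left out, and 607 without M2627 and M2630. None of the 10 genes passed an adjusted p in any alternative. Past the unadjusted p there were 0 to 1 when single libraries were left out (Pln without M2627, Ryr2 without M2628) and 1 (Pln) without M2627 and M2630. In the wider list 5 became 3 to 8 when single libraries were left out.

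Of 450 values of single genes under alternatives, 31 had the opposite sign, none of them past the unadjusted p. Without M2627 and M2630 the log2 fold change was -0.33 for Cacna1d, 0.0035 for Cacna1h, 0.076 for Ryr2, 0.20 for Stim1, -0.076 for Calm2, 0.00070 for Calm3, 0.11 for Micu2 and -0.12 for Smdt1. With library size only it was 0.0012 for Calm3 and 0.014 for Micu2, and Micu2 was at 0.014 with DESeq2, 0.0074 with the earlier method and 0.0070 with no filter. Without M2626 it was 0.011 for Cacna2d1 and -0.092 for Smdt1. Without M2627 it was -0.35 for Cacna1d, 0.043 for Stim1, 0.010 for Mrvi1, -0.018 for Calm2 and 0.13 for Micu2. Without M2628 it was 0.15 for Cacnb2, 0.075 for Calm3 and -0.10 for Mcub. Without M2629 it was 0.13 for Cacna2d1 and 0.013 for Micu2, without M2630 0.12 for Stim1, -0.013 for Calm2 and -0.045 for Smdt1, and without M2631 0.18 for Cacnb2, 0.070 for Mrvi1 and 0.081 for Calm3. The cause was not tested.

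With 3 mice a group, the spread between libraries exceeded counting error for each tested gene of the set in at least 1 group, also for Cacna1h with 68 to 146 counts. No paired analysis was possible because the labels give no replicate numbers, and the numbers used here only name libraries of different mice.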
